A study of Arabidopsis thaliana with 8 samples.

Results

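Plant nuclei carry copies of mitochondrial DNA. In Arabidopsis thaliana Col-0 a long and nearly complete copy of the mitochondrial genome lies in the pericentromere of chromosome 2, and the reference annotation lists many of its reading frames as nuclear genes. Mitochondrial DNA itself is not wrapped around histones, whereas an inserted copy is nuclear chromatin. Because the copy is almost identical to its source, a short read from either place can align to both. The genes described here are the 63 protein-coding genes, of 27213 in the nuclear genome, whose midpoint lies on chromosome 2 between 3230 and 3510 kb (TAIR10). The rule that picks them uses position and no measured value, but it was set with earlier results of these data known. MCM5 (AT2G07690), a subunit gene of the replicative helicase, was named for exclusion, but its midpoint lies beyond the border, so leaving it out removed nothing.

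Chromatin of Col-0 leaves, from plants on MS agar plates, and of a Col-0 suspension cell culture was immunoprecipitated with 4 antibodies, against histone H3, H3K4me3, H3K27me3 and H3K9me2, and sequenced (ChIP-seq). The culture was kept in medium with 1.1 mg/l of the synthetic auxin 2,4-D and passaged each 7 d, and it was fixed in 1% paraformaldehyde for 15 min. How the leaves were fixed is not given in the sources used here. H3K4me3 marks active genes, H3K27me3 is the Polycomb mark of silent genes, and H3K9me2 marks silent heterochromatin. Each of the 8 combinations was sequenced as a single library. No comparison between leaf and culture could therefore be tested, and every interval below is a 95% interval of counting error only. Total reads ranged from 1679480 to 2183580 in leaf and from 3128553 to 5672742 in the culture. The mitochondrial genome (ChrM, 366924 bp) and the plastid genome (ChrC, 154478 bp) each form a single line of the files. Both lines together held 13.7% of the reads of the leaf H3 library, 3.09% of leaf H3K4me3, 1.05% of leaf H3K27me3, and between 0.381% and 0.843% in the other 5 libraries. How reads with several equally good positions were placed is not given in the sources used here, so reads of the insertion and of the mitochondrial genome cannot be told apart in these counts.

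The 63 genes run from ABCI5 (AT2G07771, starting at 3239694) to AT2G07741 (ending at 3503476). They are short, with a median of 755 bp against 1919 bp in the other nuclear genes, and together cover 69414 bp. Only 2 have a symbol in RefSeq, ABCI5 and ABCI4 (AT2G07681), both listed there under ATP-binding cassette subfamily I. The other 61 are known to the files and to RefSeq by locus number alone, and no role is given for them here. The same span holds 38 transposable elements and 93 stretches between annotated features, and 3 of the 63 genes overlap an element and 5 overlap another gene, so their reads can count more than once.

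Read density over the insertion genes was far above that of ordinary genes in some libraries and close to it in others. In leaf H3 the median insertion gene had 54.2 reads per kb, which is 5.47 times the median of the other nuclear protein-coding genes and higher than 99.9% of them. All 63 genes lay above the median nuclear gene there, from 2.60 to 44.0 times its density, and 52 of the 100 densest genes of the genome in leaf H3 were insertion genes. In culture H3 the median insertion gene had 1.47 times the density of the median gene, 42 genes lay above it and 21 below, and none was among the 100 densest.

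In units of the median nuclear gene, H3K9me2 stood higher over the insertion genes than the other antibodies in both sample types. Relative to the median gene their median was 28.1 in leaf and 12.8 in the culture, with 60 and 61 of the 63 genes above it. For H3K4me3 it was 1.76 in leaf and 1.33 in the culture, and for H3K27me3 it was 1.57 and 2.51. These sizes depend on the unit: over the mean density of the nuclear genome, which includes heterochromatin, the H3K9me2 medians were 2.21 in leaf and 1.61 in the culture. The H3K27me3 medians then lay below the genome mean, at 0.790 in leaf and 0.717 in the culture, whereas leaf H3 stayed at 4.45 and culture H3 at 1.00. The median gene itself had only 1.19 H3K9me2 reads per kb in leaf and 3.46 in the culture, against 9.90 and 17.9 for H3. By rank, the median insertion gene exceeded 98.8% of other genes in leaf H3K9me2 and 97.7% in culture H3K9me2. For H3 the shares were 99.9% in leaf and 78.9% in the culture. Single genes had from 0 to 617 reads in a library, and a count of 0 allows up to 3 reads. A count of 0 occurred at 1 gene in leaf H3K27me3, 3 in leaf H3K9me2, 1 in culture H3 and 2 in culture H3K9me2.

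Neighbouring nuclear genes did not have the high leaf H3. The closest gene before the insertion, AT2G07640, had 12 leaf H3 reads, 1.77 times the median gene, and the closest after it, ABCC13 (AT2G07680), an ATP-binding cassette transporter gene, had 65 reads, 0.848 times the median gene. MCM5, 19687 bp beyond the last insertion gene, had 34 leaf H3 reads, 0.799 times the median gene. Across the 7 protein-coding genes within 100 kb of the region the leaf H3 range was 0.799 to 1.77 times the median gene, below the lowest insertion gene. For H3K9me2 these 7 genes had a median of 7.26 times the median gene in leaf and 7.88 in the culture, and ranged from 0 to 18.8 times in leaf and from 1.35 to 31.1 times in the culture. The gene at 0 in leaf was AT2G07521, of which the leaf H3 library held 2 reads.

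**Figure D1:**
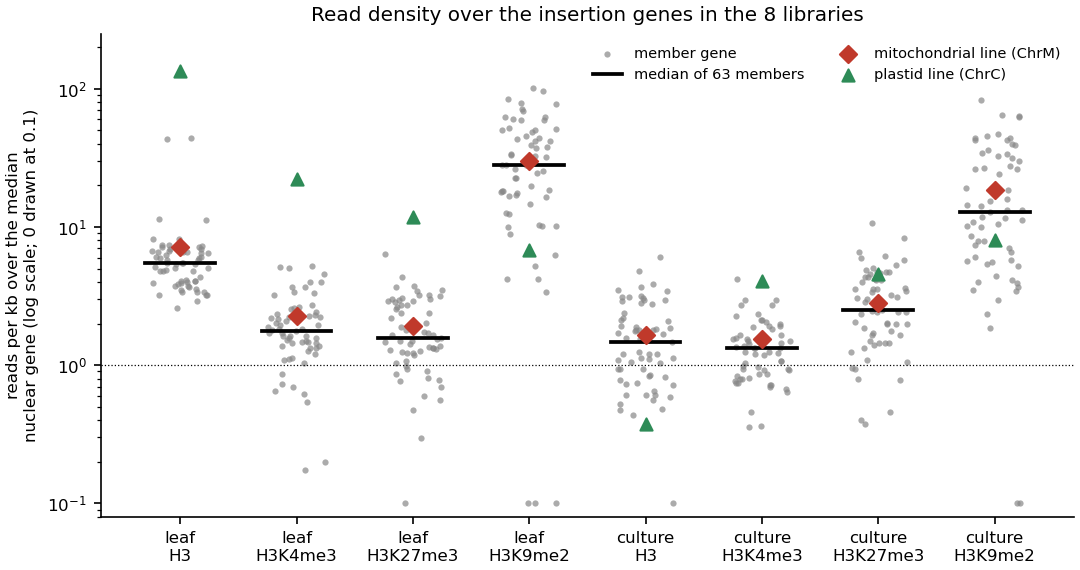
Read density of the 63 insertion genes (grey points, reads per kb over the median nuclear protein-coding gene, log axis) in each of the 8 libraries, with their median (bar), the mitochondrial line (diamond) and the plastid line (triangle). The median of the genes lies below the mitochondrial line in every library, closest in leaf H3K9me2 at 28.1 against 30.01 and furthest in culture H3K9me2 at 12.8 against 18.5, while the plastid line runs from 134 in leaf H3 to 0.374 in culture H3.

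The density of the insertion genes followed that of the mitochondrial line from library to library. Summed over the 63 genes, the reads per kb were 59.5 in leaf H3, 30.3 in leaf H3K4me3, 16.3 in leaf H3K27me3 and 38.2 in leaf H3K9me2. On the mitochondrial line they were 70.6, 35.2, 17.5 and 35.8 in the same order. In the culture the insertion genes had 29.9, 33.0, 39.1 and 65.1 reads per kb for H3, H3K4me3, H3K27me3 and H3K9me2, and the mitochondrial line 29.6, 36.6, 38.2 and 63.9. Across the 8 libraries the density of the genes therefore spanned 4.00-fold and that of the mitochondrial line 4.03-fold. These densities are not scaled to the depth of each library, which differed, so shared depth enters both spans. A ratio within a library is free of depth.

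The ratio of the genes to the mitochondrial line spanned only 1.27-fold. It was lowest in leaf H3, at 0.844 (0.816 to 0.872), and highest in leaf H3K9me2, at 1.07 (1.02 to 1.11). In leaf it was 0.863 (0.824 to 0.904) for H3K4me3 and 0.927 (0.870 to 0.988) for H3K27me3. In the culture it was 1.01 (0.963 to 1.06) for H3, 0.903 (0.864 to 0.944) for H3K4me3, 1.02 (0.983 to 1.07) for H3K27me3 and 1.02 (0.986 to 1.05) for H3K9me2. The intervals of culture H3, H3K27me3 and H3K9me2 include 1, and those of the other 5 libraries do not. These intervals hold counting error only, and the genes varied by more than that, as described below. Whether an interval includes 1 therefore does not settle equality. As a median over genes the ratio was 0.937 in leaf H3K9me2 and 0.690 in culture H3K9me2. The 93 stretches between features had 52.6 reads per kb in leaf H3 and 30.2 in culture H3, or 0.746 and 1.02 times the mitochondrial line. They include the first 10 kb of the region, where no insertion gene has its midpoint and leaf H3 had 9.64 reads per kb.

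The near equality with the mitochondrial line was an average over stretches of unlike density. Along the insertion, culture H3 dropped between AT2G07705, which ends at 3380944, and AT2G07706, which starts at 3381902. This point was found after the values were seen, as the place that best splits the genes into 2 stretches of constant log density in culture H3, so the split is a description without a test. The first stretch holds 34 genes (34427 bp in all) and the second 29 genes (34987 bp). In culture H3 the first had 1585 reads, or 46.0 per kb, and the second 492 reads, or 14.1 per kb.

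The same position was the best split in 5 libraries, namely culture H3, H3K4me3 and H3K27me3 and leaf H3K4me3 and H3K27me3. In the H3K9me2 libraries of both sample types the best split came 1 gene earlier, between AT2G07702 and AT2G07705, a gene of 200 bp with 4 reads in leaf and 0 in the culture. Leaf H3 was the exception, with its best split at 49 genes. The best split of each library accounted for 62.98% of the variance of log density among the genes in culture H3K9me2, 62.8% in culture H3, 48.7% in leaf H3K9me2, 43.8% in culture H3K27me3 and 28.9% in leaf H3K27me3. It accounted for 15.0% or less in leaf H3 and both H3K4me3 libraries. Over all 152 intervals of at least 200 bp in the region, the best split lay between 143 and 152 kb from the start of the region for culture H3 and all H3K27me3 and H3K9me2 libraries. For H3K4me3 it lay elsewhere, at 134 kb in leaf with 5.64% of the variance and at 17.2 kb in the culture with 8.52%, so the H3K4me3 split depends on the intervals used. For leaf H3 it lay at 10.5 kb with 33.2% of the variance. Leaf H3 rose there, from 9.64 reads per kb in the first 10 kb of the region to 52.8 in the next 10 kb.

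The size of the drop depended on the antibody. The first stretch was 5.19 times (4.79 to 5.62) as dense as the second in culture H3K9me2, 3.27 times (2.96 to 3.63) in culture H3 and 3.11 times (2.85 to 3.402) in leaf H3K9me2. The ratio was 2.26 (2.08 to 2.45) in culture H3K27me3, 1.77 (1.56 to 2.00) in leaf H3K27me3, 1.39 (1.28 to 1.51) in culture H3K4me3 and 1.35 (1.24 to 1.47) in leaf H3K4me3. Leaf H3 was the only library in which the first stretch was the less dense, at 0.893 times the second (0.840 to 0.950). That order in leaf H3 rests on AT2G07732 and AT2G07739, described below: without them the first stretch was 1.13 times as dense as the second (1.06 to 1.21). The medians per gene in leaf H3 were 53.9 and 54.3 reads per kb.

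Single genes of the stretches overlapped in every library. In culture H3 the first stretch ran from 14.0 to 109 reads per kb with a median of 38.6, and the second from 0 to 27.7 with a median of 14.8. All 29 genes of the second stretch lay below the median of the first, and 14 lay below its lowest gene. In culture H3K9me2 the first stretch ran from 0 to 288 with a median of 107, and the second from 0 to 90.8 with a median of 19.5. The densest gene of the first stretch in H3K9me2 was AT2G07667 in both sample types, with 257 leaf reads (120 per kb) and 617 culture reads (288 per kb). In culture H3 the median gene of the second stretch was at 0.825 times the median nuclear gene and that of the first at 2.16.

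**Figure D2:**
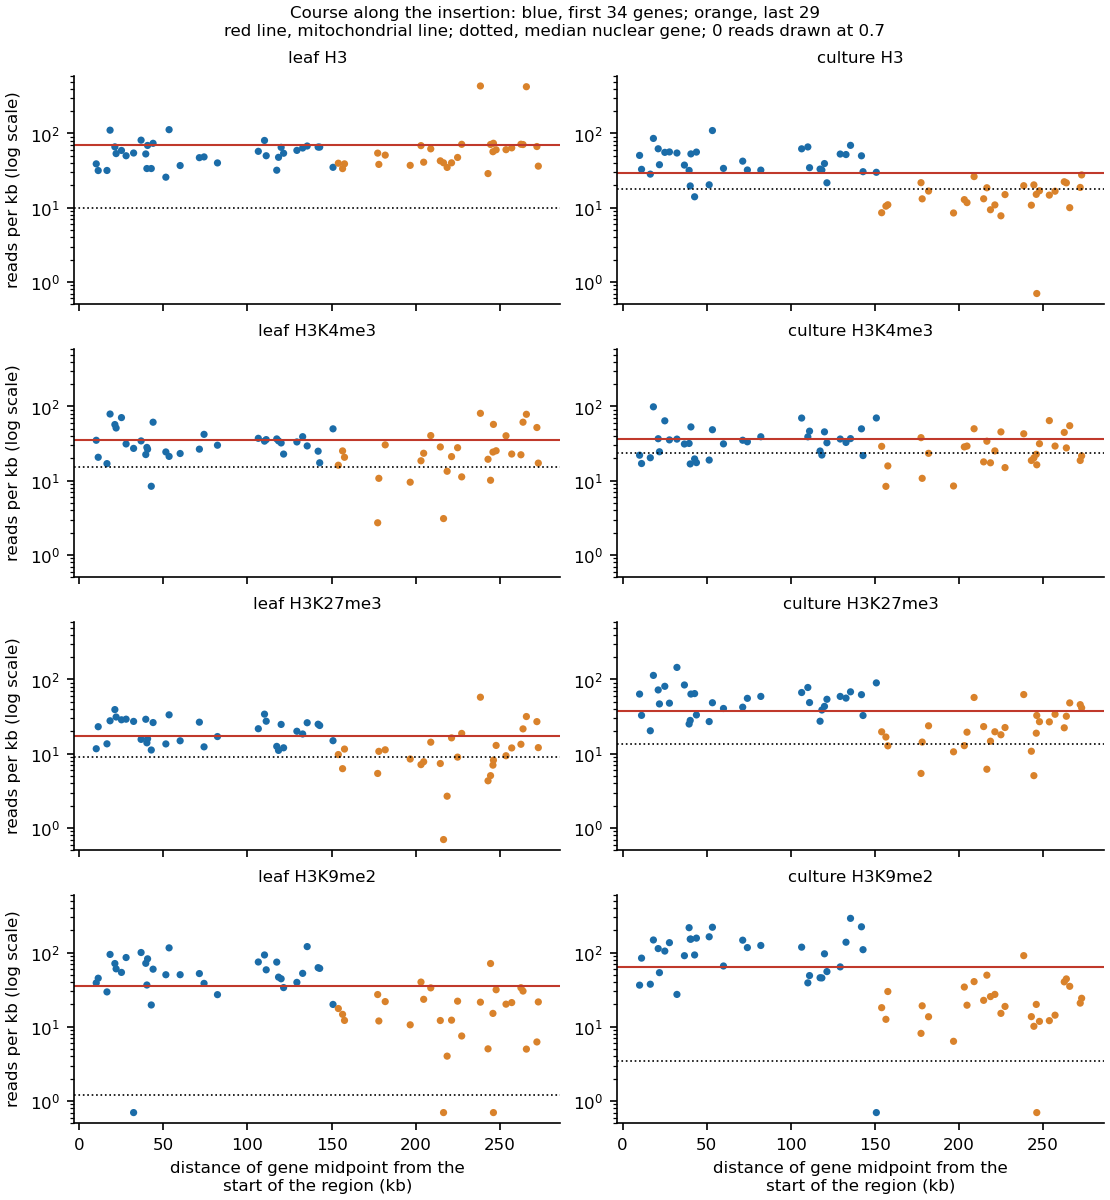
Reads per kb (log axis) of each insertion gene against its distance from the start of the region, 1 panel per library, with the first 34 genes in blue and the last 29 in orange; the red line is the mitochondrial line and the dotted line the median nuclear gene. In culture H3 and both H3K9me2 panels the points drop about 150 kb into the region (46.0 to 14.1 reads per kb in culture H3). In leaf H3 the medians of the stretches are close, at 53.9 and 54.3 reads per kb, while single genes vary and 2 stand high.

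Set against the mitochondrial line, the stretches fell on opposite sides of it in the H3K9me2 and H3K27me3 libraries of both sample types and in culture H3. In culture H3 the first stretch was at 1.55 times the mitochondrial line (1.47 to 1.64) and the second at 0.475 (0.433 to 0.520). In culture H3K9me2 they were at 1.72 (1.66 to 1.78) and 0.331 (0.307 to 0.356), and in leaf H3K9me2 at 1.62 (1.55 to 1.70) and 0.522 (0.482 to 0.565). For H3K27me3 they were at 1.19 (1.10 to 1.28) and 0.672 (0.607 to 0.742) in leaf and at 1.42 (1.36 to 1.495) and 0.631 (0.587 to 0.676) in the culture. For H3K4me3 the interval of the first stretch included 1 in both sample types, at 0.992 (0.934 to 1.05) in leaf and 1.05 (0.993 to 1.11) in the culture, and the second lay below the line at 0.736 and 0.758. In leaf H3 both lay below it, at 0.796 (0.759 to 0.833) and 0.891 (0.853 to 0.931). Intervals between features split in the same direction in culture H3, with 42.8 reads per kb in the first stretch and 16.6 in the second. In culture H3K9me2 they parted less than the genes, at 1.41 and 0.542 times the mitochondrial line. Transposable elements followed the genes in culture H3, at 1.55 and 0.717 times the line. They went the other way in culture H3K4me3, at 0.821 in the first stretch and 1.42 in the second. In leaf H3K9me2 the elements of both stretches lay above the line, at 1.45 and 1.17.

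**Figure D3:**
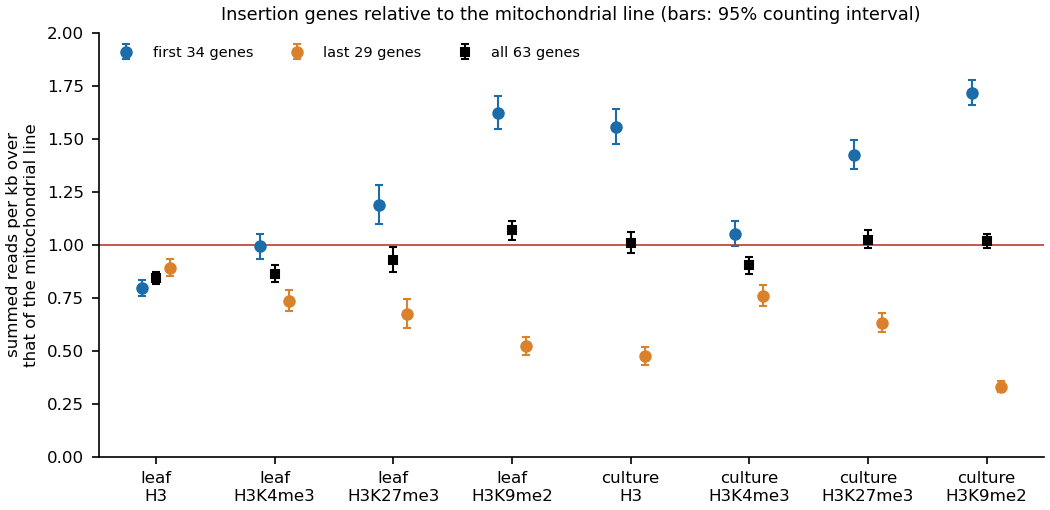
Summed reads per kb of the insertion genes over that of the mitochondrial line in each library, for all 63 genes (squares), the first 34 (blue) and the last 29 (orange); bars are 95% exact binomial intervals of the counts. All 63 together lie between 0.844 and 1.07, whereas the stretches part most in culture H3K9me2, at 1.72 and 0.331.

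Within a stretch the genes still varied by more than counting error. A chi-square of the reads against gene length, divided by its degrees of freedom, would be near 1 for counting error alone. In the first stretch it ranged from 2.27 in leaf H3K27me3 to 39.3 in culture H3K9me2. In the second it ranged from 2.20 in culture H3 to 98.8 in leaf H3, and the latter was 3.92 without AT2G07732 and AT2G07739.

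AT2G07732 (3468169 to 3468774) and AT2G07739 (3495512 to 3496110) stood apart in leaf H3. AT2G07732 had 264 leaf H3 reads in 606 bp and AT2G07739 had 255 in 599 bp, which are 436 and 426 reads per kb. The median of the other 27 genes of the second stretch was 51.1, and the next densest insertion gene, AT2G07669, had 112. In the other leaf libraries AT2G07732 had 49 reads for H3K4me3, 35 for H3K27me3 and 13 for H3K9me2, and AT2G07739 had 47, 19 and 3. In the culture AT2G07732 had 12, 26, 38 and 55 reads for H3, H3K4me3, H3K27me3 and H3K9me2, and AT2G07739 had 6, 33, 29 and 21.

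Both genes exceeded the other genes of their stretch most in leaf H3, the library with most plastid reads. The plastid line had 1323 reads per kb in leaf H3, 345 in leaf H3K4me3, 107 in leaf H3K27me3 and 8.11 in leaf H3K9me2. In the same order AT2G07739 was at 8.33, 3.507, 3.37 and 0.284 times the median of the other 27 genes, and AT2G07732 at 8.53, 3.61, 6.14 and 1.22 times. In the culture the plastid density was 6.70 reads per kb with the H3 antibody, 95.6 with H3K4me3, 62.1 with H3K27me3 and 27.8 with H3K9me2. In that order AT2G07739 was at 0.677, 2.35, 2.45 and 1.83 times that median, and AT2G07732 at 1.34, 1.83, 3.17 and 4.74 times. AT2G07732 thus stood highest among the culture libraries in H3K9me2, and not in H3K4me3 where plastid reads were densest. The part of plastid reads in these values was not tested.

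**Figure D4:**
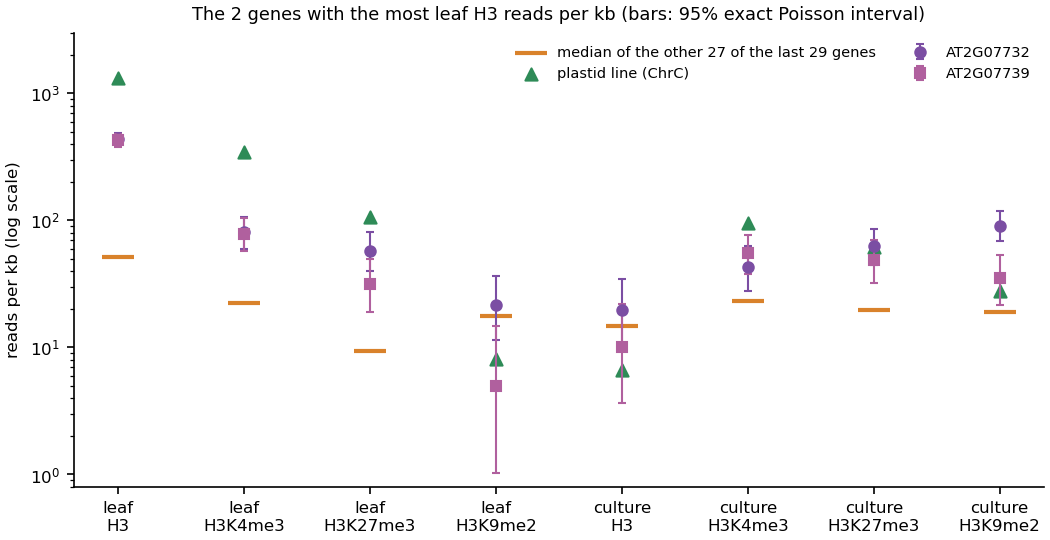
Reads per kb (log axis) of AT2G07732 and AT2G07739 in each library, with exact Poisson intervals, beside the median of the other 27 genes of the second stretch (bar) and the plastid line (triangle). Both genes reach 436 and 426 reads per kb in leaf H3, where the plastid line is at 1323, and lie near the other genes in culture H3.

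At the low end of leaf H3 were AT2G07678 with 19 reads (25.8 per kb), AT2G07734 with 40 (28.8) and AT2G07773 with 26 (31.7), all still above the median gene of 9.90. ABCI4, the longest insertion gene at 4814 bp, had 178, 112, 72 and 242 reads in leaf for H3, H3K4me3, H3K27me3 and H3K9me2, and 163, 151, 196 and 317 in the culture. ABCI5 had 30, 27, 9 and 30 reads in leaf and 39, 17, 49 and 28 in the culture.

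Scaled to nuclear reads, H3 over the insertion genes was lower in the culture than in leaf, a direction that turned when the counts were scaled to the mitochondrial line instead (median log2 change 0.37). A pseudocount of 1 read was added, and a gene is said to have risen or fallen where it changed at least 2-fold and its counting interval excluded 0. Of 56 genes with at least 20 H3 reads over both libraries 53 fell, none rose and 3 did neither, against 10.2% fallen and 4.96% risen among all 23528 genes tested. The filter sums both libraries, so a gene of low culture H3 can pass on its leaf reads, as AT2G07820 did with 19 and 4. Such a gene can hardly be called other than fallen. Without the filter 58 of the 63 genes fell. The median log2 change was -1.99 over the insertion genes and -0.24 over all genes, and 26 of the 100 lowest changes of the genome were insertion genes. The mitochondrial line had -2.36 (-2.39 to -2.32) by the same formula, and scaling to it moves every gene, the median of all genes included, by that amount. Organelle reads made up 13.7% of leaf H3 and 0.381% of culture H3, and their part in the H3 difference was not tested. In the first stretch 27 of 30 tested genes fell (median -1.41) and in the second 26 of 26 (median -2.87). That gap is no separate result, since the split was placed where culture H3 drops. The extremes were ABCI5, with -0.74 (-1.41 to -0.06), and AT2G07739, with -6.30 (-7.38 to -5.21). MCM5 beyond the border had 0.21 (-0.36 to 0.77).

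Divided by H3 and scaled to nuclear reads, each mark was higher in the culture over many insertion genes and lower over none by that rule. Scaled to the mitochondrial line, the medians turned to -0.54 for H3K4me3, -0.48 for H3K27me3 and -0.72 for H3K9me2. That scaling moves all genes by the same amount within a mark, so the medians of all genes move too. A gene was tested if it had at least 20 mark reads over both libraries and 10 H3 reads in each, which 45 to 47 of the 63 genes passed. The mark filter sums both libraries, so a gene of few leaf mark reads can pass on its culture reads. Such a gene is more likely to be called risen. For H3K4me3 24 of 45 tested genes rose, against 12.7% risen and 8.55% fallen among all 20473 genes, with a median of 1.13 against 0.11. For H3K27me3 32 of 46 rose, against 2.76% risen and 26.7% fallen among 19845 genes, with medians of 1.61 and -0.57. For H3K9me2 33 of 47 rose, against 21.6% risen and 10.7% fallen among 6147 genes, with medians of 1.62 and 0.34. The mitochondrial line had 1.67 (1.62 to 1.72) for H3K4me3, 2.09 (2.04 to 2.15) for H3K27me3 and 2.34 (2.30 to 2.39) for H3K9me2. MCM5 had 0.05 (-0.76 to 0.86), -0.29 (-1.16 to 0.59) and -1.25 (-2.27 to -0.23).

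Nearly all of these rises were lost without the division by H3, whose leaf library was high over the insertion. Without H3, no insertion gene rose in H3K4me3 and 14 fell, against 10.3% risen and 14.9% fallen among all genes, and the median was -0.50 against -0.14. For H3K27me3 none rose and 5 fell, against 3.66% risen and 40.1% fallen, and the median was -0.29 against -0.80. For H3K9me2 AT2G07687 and AT2G07732 rose and 9 fell, against 29.8% risen and 14.3% fallen, and the median was -0.20 against 0.43. The direction of all 3 medians thus turned with the division.

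The split by culture H3 also bears on how the stretches compare in changes over H3, because culture H3 is the divisor. The counts over H3 are therefore given as a description only. Over H3, 14 of 16 tested genes of the second stretch rose in H3K4me3 (median 2.28) and 10 of 29 of the first (median 0.77). For H3K27me3 16 of 16 rose in the second (median 2.64) and 16 of 30 in the first (median 1.17). For H3K9me2 the counts were 15 of 17 (median 2.34) and 18 of 30 (median 1.23). Fewer genes of the second stretch passed the filter, which asks for 10 culture H3 reads. Without H3, the medians of the second stretch were -0.48 for H3K4me3, -0.35 for H3K27me3 and -0.59 for H3K9me2, and those of the first were -0.56, -0.21 and -0.09. Without H3 0 genes of either stretch rose in H3K4me3 or H3K27me3, and 1 of each rose in H3K9me2.

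Among the tested genes AT2G07732 had the largest rise for each mark over H3, with 3.82 (2.77 to 4.87) for H3K4me3, 4.18 (3.15 to 5.22) for H3K27me3 and 6.61 (5.44 to 7.77) for H3K9me2. Its H3 change was -5.45 (-6.26 to -4.65). At the other end AT2G07768 had -0.97 (-2.14 to 0.21) for H3K4me3, AT2G07773 had 0.15 (-0.97 to 1.28) for H3K27me3 and AT2G07691 had -0.66 (-1.76 to 0.43) for H3K9me2. ABCI4 rose by 1.28 (0.78 to 1.77) in H3K27me3 and had 0.91 (0.45 to 1.38) and 0.77 (0.38 to 1.16) for H3K4me3 and H3K9me2. ABCI5 rose by 1.67 (0.48 to 2.86) in H3K27me3 and had -0.64 (-1.73 to 0.45) and -0.21 (-1.20 to 0.79) for the others.

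**Figure D5:**
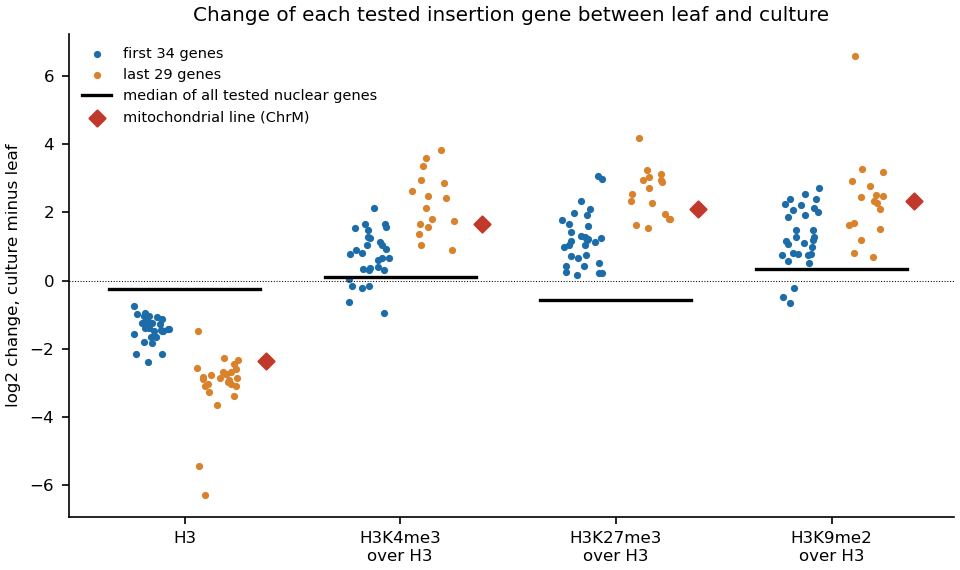
Log2 change from leaf to culture of each tested insertion gene, for H3 and for each mark over H3, with the first 34 genes in blue and the last 29 in orange, the median of all tested nuclear genes (bar) and the mitochondrial line (diamond). With scaling to nuclear reads H3 changes lie below 0 in all 56 tested genes (median 0.37 when scaled to the mitochondrial line). The gap in H3 between the stretches, with medians of -2.87 and -1.41, is no separate result, since they were split by culture H3.

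Within leaf no tested insertion gene was marked, that is, at least 2-fold above H3. The divisor, leaf H3, was itself high there, with the median insertion gene at 5.47 times the median gene, which lowers each ratio. Without division the median insertion gene had 28.1 times the leaf H3K9me2 density of the median gene. The shares marked among all tested genes in leaf were 22.8% for H3K4me3, 19.4% for H3K27me3 and 3.63% for H3K9me2. The insertion genes had medians of log2 mark over H3 of -1.26, -2.16 and -0.60 there, and the mitochondrial line had -1.52, -2.59 and -1.30. The medians of all tested genes were 0.20, -0.72 and -2.21. For H3K9me2 the insertion genes thus lay above the typical gene in leaf, although none was marked. In the culture 19 of 47 insertion genes were marked by H3K9me2, against 4.57% of all tested genes, and 16 of the 19 lay in the first stretch, where 30 were tested. For H3K4me3 4 of 45 were marked in the culture, all in the second stretch, against 29.2%. For H3K27me3 0 of 46 were marked, against 11.9%. These counts by stretch also rest on the split by culture H3, the divisor. The culture medians were -0.11 for H3K4me3, -0.56 for H3K27me3 and 0.86 for H3K9me2, and the mitochondrial line had 0.15, -0.49 and 1.04. All tested genes had medians of 0.35, -1.34 and -1.97 in the culture.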

How the data were processed

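The authors deposited counts: each library has its own file with a whole number of reads, not normalized, for 109972 genes, elements and stretches between them. Bowtie2, bedtools and TAIR10 are named, without tool versions, in the submitters' processing notes. Aligner settings, duplicate removal and the placing of reads with several matches: not given in the sources used here. Symbols came from RefSeq (63 of 63 genes matched). No reference sequence was used. Depth per library is given in ranges above.

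Density is reads per kb of annotated interval. Ratios to the mitochondrial line have exact binomial intervals. Changes are log2 differences of counts scaled to nuclear reads, with a pseudocount of 1 and counting errors, computed over all nuclear protein-coding genes. No spike-in is described, so the scales are relative. A pair of libraries gives no test between sample types. The functions were tested on simulated data. Python 3.11.15, numpy 2.4.6, pandas 2.3.3, scipy 1.17.1 and matplotlib 3.10.9 were used.

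The genes and lists were chosen with earlier results of these data known. Genes named are those with a symbol, the 3 highest and 3 lowest in leaf H3, the extremes of each change, MCM5 and the nearest neighbours. AT2G07702, AT2G07705, AT2G07706, AT2G07667, AT2G07687, AT2G07741, AT2G07820 and AT2G07521 were named after their values were seen, to mark a split, a border, an extreme, a filter or a call. Planned naming of respiratory and ribosomal genes by role was not done, because the sources used here give these genes no role. Settings varied were the pseudocount, filter, scaling, fold, borders, unit of density and division by H3.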

Additional observations from a re-analysis of the deposited data

Results flagged for a closer look

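The H3K9me2 level over H3 of the insertion genes lay on opposite sides of 0 in the sample types, with a median log2 of -0.60 in leaf and 0.86 in the culture. The difference was not tested, since there was 1 library for each. The mitochondrial line moved the same way, from -1.30 to 1.04. All tested genes had medians of -2.21 in leaf and -1.97 in the culture. The change of sign came with the division by H3: without it the median H3K9me2 change of the insertion genes was -0.20, against 0.43 over all genes.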

How the results depend on the processing

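No alternative leaves out a replicate, since each library is single, and no paired analysis was possible because each group holds 1 library. Scaled to the mitochondrial line, H3 was higher over 13 genes and lower over 4 (median 0.37). H3K4me3 over H3 was then higher over 4 and lower over 13 (median -0.54), H3K27me3 over 3 and 12 (median -0.48), and H3K9me2 over 1 and 19 (median -0.72). This follows from the scaling, which subtracts the change of the mitochondrial line from every gene. The median of all genes moves by the same amount, so the insertion genes keep their place relative to it. Shares called among all genes are not given here for this scaling, for 3-fold, for centring or without the filter. Without division by H3, H3K4me3 was higher over 0 genes and lower over 14 (median -0.50), H3K27me3 over 0 and 5 (median -0.29), and H3K9me2 over 2 and 9 (median -0.20), which leaves out the H3 change. At 3-fold, 33 genes fell in H3 and 15 rose in H3K4me3 over H3. Centred on the median gene, the H3K27me3 median over H3 was 2.18. Over the nuclear genome mean, the median density was 4.45 (H3), 0.790 (H3K27me3) and 2.21 (H3K9me2) in leaf, and 1.00, 0.717 and 1.61 in the culture. As a median over genes, density over the mitochondrial line in leaf was 0.767 (H3), 0.776 (H3K4me3), 0.817 (H3K27me3) and 0.937 (H3K9me2), and in the culture 0.886, 0.855, 0.891 and 0.690. Over all intervals of the region it was 0.773 in leaf H3, 0.795 in leaf H3K4me3 and 0.978 in culture H3K27me3. Without AT2G07732 and AT2G07739, an alternative chosen after seeing the data, it was 0.751 in leaf H3. Without the filter 36 genes rose in H3K4me3, 43 in H3K27me3 and 41 in H3K9me2 over H3, centring gave 22, 40 and 25, and 3-fold left 24 in each of the last 2 marks. Low culture H3 over the second stretch limits the marks there: 16 or 17 of 29 genes could be tested.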
